A study of Mus musculus with 15 samples.

Results

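The 7 genes described here encode the core of MHC class II antigen presentation: *H2-Aa*, *H2-Ab1*, *H2-Eb1*, *H2-DMa*, *H2-DMb1*, *Cd74* and *Ciita*. They were chosen by gene symbol, and all 7 were found among the 24982 gene symbols counted by RNA-Seq in 15 mouse aorta libraries. All 7 passed the filter on low counts, which left 14121 genes to be tested. The mice were 10-month-old WT C57BL/6 males, and every mouse received Aldo-salt, which is aldosterone from an osmotic minipump (200 µg/kg/d) together with salt in the drinking water (0.9% NaCl and 0.2% KCl), up to day 7. The control group (5 libraries) had a sham operation, the orchiectomized group (5 libraries) had its testes removed, and the DHT group (5 libraries) was orchiectomized and carried a pellet of dihydrotestosterone, an androgen that aromatase cannot convert to estrogen. The operation came 2 weeks before Aldo-salt. No group shows the aorta without Aldo-salt, and testis products other than DHT were missing from the DHT group as well. The comparisons ask whether removing androgen, and giving it back as DHT, went with a change in class II transcripts of the whole vessel.

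MHC class II molecules display peptides from ingested proteins to CD4+ T cells. An α and a β chain pair in the endoplasmic reticulum around the invariant chain, proteases in the endosome trim the invariant chain to a short peptide called CLIP, and the DM heterodimer exchanges CLIP for antigen peptides. B cells, dendritic cells and macrophages make class II molecules constitutively or after interferon-γ, lung alveolar type II cells also make them, and the transactivator CIITA is needed for their transcription.

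The members lie in the mouse MHC on chromosome 17, except *Cd74* and *Ciita*. On GRCm38.p6 (mm10), the build named in the submitters' processing notes, *H2-DMa* occupies chr17:34119693-34139101 (+ strand), *H2-DMb1* chr17:34153191-34160229 (+), *H2-Ab1* chr17:34263227-34269418 (+), *H2-Aa* chr17:34282744-34287823 (- strand) and *H2-Eb1* chr17:34305867-34316674 (+). *Ciita* lies apart at chr16:10480014-10531064 (+). The promoters of class II genes are known for an X box, bound by the RFX complex, and a Y box, bound by NF-Y, on which CIITA docks, and the sequences below show where these letters stand in 3 of the genes described. RefSeq promoter windows (250 bases before to 50 after the start site) matched 4 of the 7 genes (*H2-Aa*, *H2-Eb1*, *H2-DMa* and *H2-DMb1*). Capitals mark the X box core, read as AG, 2 free bases, AC, 1 free base and GATG, and the Y box CCAAT or its reverse complement ATTGG, both searched on both strands, in the stretch from -110 to -21 relative to the start site.
*H2-Aa*, chr17:34287844-34287933 (-): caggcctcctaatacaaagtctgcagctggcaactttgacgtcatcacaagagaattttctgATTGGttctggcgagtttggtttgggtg
*H2-Eb1*, chr17:34305757-34305846 (+): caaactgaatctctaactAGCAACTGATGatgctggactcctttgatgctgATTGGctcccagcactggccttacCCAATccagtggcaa
*H2-DMb1*, chr17:34153081-34153170 (+): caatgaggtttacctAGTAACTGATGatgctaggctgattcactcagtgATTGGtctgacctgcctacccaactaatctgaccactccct
*H2-Eb1* and *H2-DMb1* carried the X box core at -92 to -82 and at -95 to -85, with an ATTGG downstream of it, whereas *H2-Aa* carried ATTGG without these X box letters. *H2-DMa* had 2 windows, of which the one at chr17:34125268-34125567, within the span given above, held ATTGG at -198 to -194. Neither window held the X box core. Of all 32851 RefSeq promoter windows, 37.4% held a Y box and 0.968% held the X box core. A match of letters is a description and does not show that a factor was bound. The lack of a match to this form of the core does not show that an X box was absent.

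The gene counts of a library summed to between 8268957 and 13816864. All 8 smooth muscle markers were counted in every group, with summed levels of 11204 to 25023 CPM (the count relative to the TMM-scaled library size), so the libraries carried the RNA of a muscular vessel. Library orchiectomized 2 stood apart: its summed level of 11 lung epithelial markers was 7602 CPM, against 4.17 to 43.6 CPM in the other 14 libraries. *Sftpc*, a surfactant gene of alveolar type II cells, was at 1979 CPM in it, at 0 to 3.92 CPM in the other orchiectomized libraries and at 0 CPM in all 5 controls. The tests of the members, the counts over gene lists and the ratios below are therefore given with and without this library. Orchiectomized 4 had the next highest lung level, at 43.6 CPM, and without orchiectomized 2 the orchiectomized libraries ran from 7.49 to 43.6 CPM against 4.17 to 6.52 CPM in the controls, so that leaving out this library did not leave out all lung transcripts.

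Per kilobase of transcript, the invariant chain gene *Cd74* was the most abundant member in the control aortas, at 146 ± 47.1 CPM per kb (SD, n = 5). The peptide-binding chains followed, with *H2-Aa* at 82.0 ± 26.3, *H2-Ab1* at 75.9 ± 25.8 and *H2-Eb1* at 59.2 ± 17.1 CPM per kb. Neighbours among these 3 chains differed by less than their SD between libraries. The 3 chains rose and fell together, however, with Pearson's r of log2 CPM of 0.96 to 0.99 over 15 libraries. This SD therefore does not show how steady their order was within a library. The DM genes were lower, at 10.2 ± 2.36 for *H2-DMb1* and 6.28 ± 1.21 CPM per kb for *H2-DMa*, and the regulator *Ciita* was lowest at 0.539 ± 0.182 CPM per kb. The order of the classes, *Cd74* above the binding chains, above the DM genes, above *Ciita*, was the same in the orchiectomized group (337, 128 to 178, 14.9 to 18.6 and 1.11 CPM per kb) and in the DHT group (129, 65.2 to 77.3, 5.80 to 10.3 and 0.360 CPM per kb). These orchiectomized means include orchiectomized 2. Without it the mean fell from 216 to 146 CPM for *H2-Ab1* and from 24.7 to 16.3 CPM for *H2-DMa*. *H2-DMb1* shares 27.2% of the 50-base windows of its transcript with its neighbor *H2-DMb2*, so reads of these paralogs could have been split between them, while the other 6 members had no such window in another gene.

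**Figure D1:**
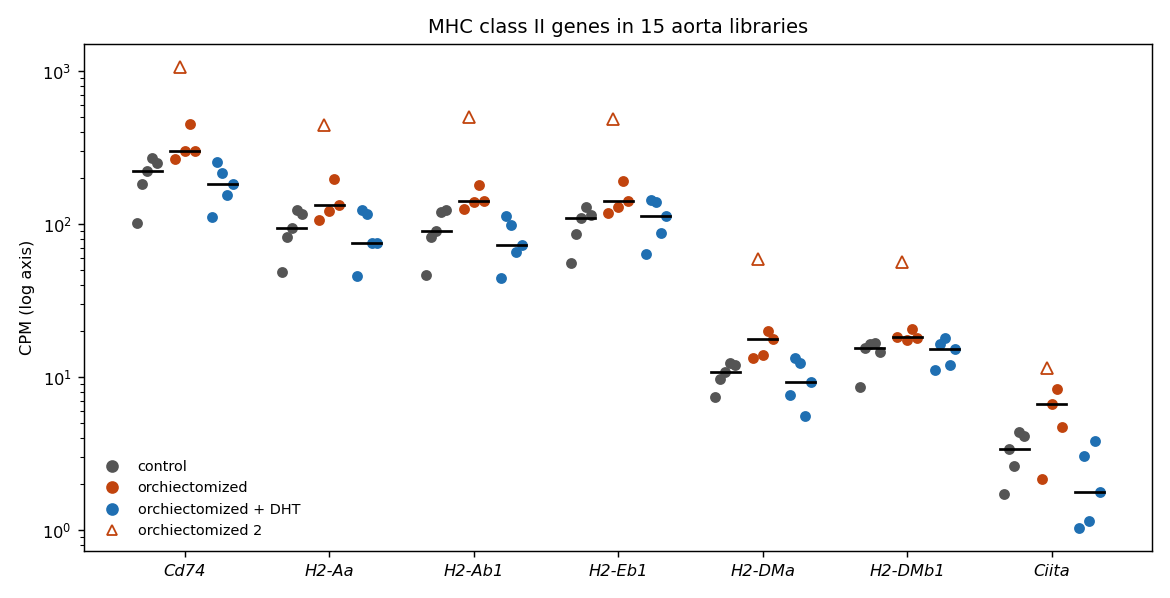
Level of each MHC class II gene (CPM, log axis) in each of the 15 libraries, with 5 libraries per group and the group median as a line. The open triangle is orchiectomized 2, which was highest for all 7 genes (*Cd74*: 1060.2 CPM), while the other orchiectomized libraries lay near the upper end of the control range or above it, except that orchiectomized 1 was low for *Ciita* (2.15 CPM).

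Of the 7 class II genes 4 were called higher in orchiectomized than in control aortas, and 0 were called when orchiectomized 2, control 1, control 2 or control 3 was left out. A gene is called higher or lower below where edgeR's test gave an unadjusted P under 0.01, the study's threshold, and P values printed are adjusted over all tested genes by Benjamini-Hochberg. *H2-Ab1*, the β chain of the I-A molecule, was at 46.0, 81.8, 89.9, 119 and 123 CPM in the controls and at 125, 497, 138, 179 and 142 CPM in the orchiectomized libraries. Every orchiectomized library was above every control, the nearest values being 125 and 123 CPM. The fitted log2 fold change was 1.23 (SE 0.39, adjusted P = 0.297 by edgeR), a 2.35-fold higher level. *H2-Aa*, which encodes the α chain paired with it, ran from 48.4 to 123 CPM in the controls (median 93.3) and from 106 to 444 CPM after orchiectomy (median 132), with a log2 fold change of 1.11 (SE 0.39) that was not called (adjusted P = 0.327).

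*Cd74* was at 102, 183, 223, 270.5 and 249 CPM in the controls and at 266, 1060.2, 300.5, 451 and 299 CPM in the orchiectomized libraries, so that orchiectomized 1 lay just within the control range. It rose by a log2 fold change of 1.21 (SE 0.38, adjusted P = 0.291 by edgeR). *H2-DMa*, the α chain of the peptide exchange factor DM, gave 7.34, 9.74, 10.7, 12.4 and 11.9 CPM in the controls against 13.3, 58.7, 13.9, 19.9 and 17.8 CPM in the orchiectomized libraries. These groups did not overlap, and the log2 fold change was 1.25 (SE 0.38, adjusted P = 0.287 by edgeR). *H2-DMb1*, its β chain partner, did not overlap either (8.60 to 16.7 against 17.3 to 56.7 CPM), although its log2 fold change of 0.87 (SE 0.32, adjusted P = 0.34) was not called.

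*H2-Eb1* encodes the β chain of the I-E molecule, whose α chain C57BL/6 mice are known not to make. Its pseudogene-annotated partner *H2-Ea-ps* had 0 counts in all 15 libraries, which allows up to 3 counts in each (0.217 to 0.363 CPM), a limit that covers counting error only. *H2-Eb1* itself was abundant, at 55.5, 86.2, 109, 128 and 115 CPM in the controls and 117, 487, 129, 192 and 142 CPM after orchiectomy, and rose by a log2 fold change of 1.11 (SE 0.38, adjusted P = 0.308 by edgeR). *Ciita* was counted 19 to 62 times per control library and 20 to 129 times per orchiectomized library, which is 1.72, 3.37, 2.61, 4.39 and 4.11 CPM against 2.15, 11.4, 6.64, 8.32 and 4.72 CPM. Its groups overlapped because orchiectomized 1 was among the lowest libraries, and its log2 fold change of 1.03 (SE 0.44, adjusted P = 0.379) was not called. Part of the *Ciita* transcript overlaps an exon of *Dexi* on the opposite strand, and without known strandedness reads there cannot be assigned to 1 of them.

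After orchiectomy 0 of the 7 genes were called lower, and the 4 called higher compare with 2.08% of all tested genes. By edgeR 0 members passed an adjusted P under 0.05, as did 0% of all tested genes, while all 7 members had an unadjusted P under 0.05. The groups of 3 members did not overlap, against 0.991% of all tested genes in that direction. The median log2 fold change was 1.11 over the members and 0.04 over all tested genes. Without orchiectomized 2, the 7 estimates stayed above 0 but shrank to between 0.36 (*H2-DMb1*) and 0.75 (*Ciita*), 0 members were called by edgeR (3 had an unadjusted P under 0.05) where 0.846% of all genes were called higher, and *H2-Ab1*, *H2-DMa* and *H2-DMb1* still did not overlap (1.23% of all genes). The count was 2 without orchiectomized 4. In whole aortas a larger number of cells that make class II molecules and more class II RNA per cell cannot be told apart.

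**Figure D2:**
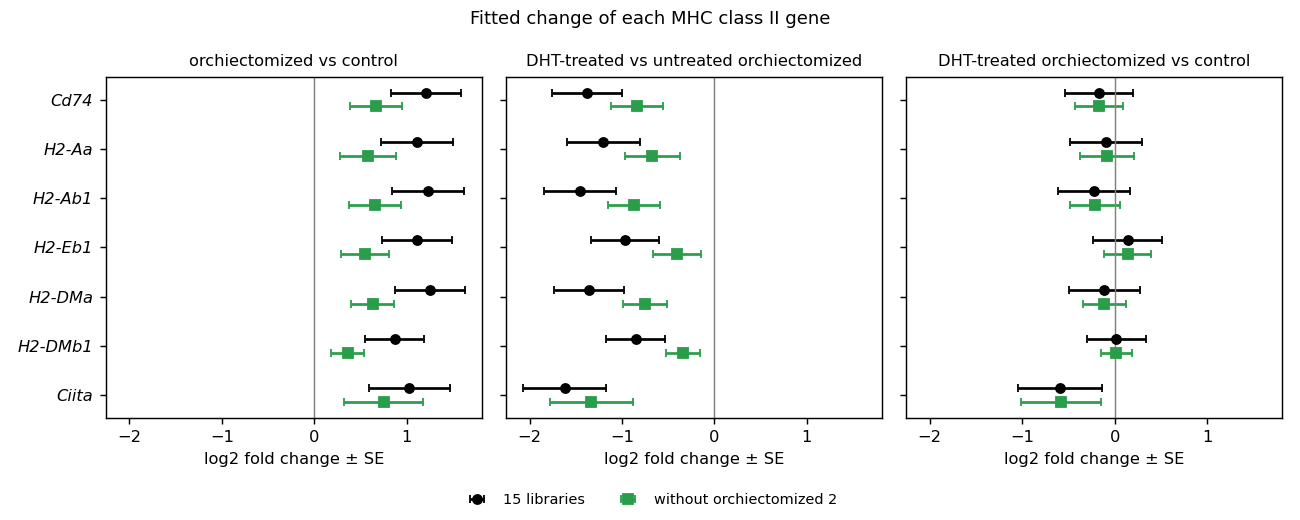
Fitted log2 fold change ± SE of each gene in the 3 comparisons, with all 15 libraries (circles) and without orchiectomized 2 (squares). All 7 estimates lay above 0 in orchiectomized against control mice (0.87 to 1.25) and below 0 in DHT-treated against untreated orchiectomized mice (-1.62 to -0.85), and moved toward 0 in both when the library was left out.

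In DHT-treated against untreated orchiectomized mice all 7 estimates were below 0, and 5 members were called lower (4 without orchiectomized 2). *H2-Ab1* was at 44.2, 113, 98.8, 65.9 and 73.3 CPM in the DHT group, all below the lowest orchiectomized library at 125 CPM. It fell by 1.45 on the log2 scale (SE 0.39, adjusted P = 0.0481 by edgeR), and it was the 1 member to pass an adjusted P under 0.05. *Cd74* was at 111, 253, 214, 154 and 181 CPM, also below every orchiectomized library, and fell by 1.38 (SE 0.38, adjusted P = 0.0505 by edgeR).

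*Ciita* had the lowest estimate of the members, with 1.03, 3.06, 1.15, 3.83 and 1.76 CPM in the DHT group from 9 to 34 counts, so that its level there is measured with little precision. It fell by 1.62 on the log2 scale (SE 0.45, adjusted P = 0.0525 by edgeR), with groups that overlapped through orchiectomized 1. *H2-DMa* was at 7.61, 13.3, 12.3, 5.55 and 9.31 CPM, and its highest DHT library and lowest orchiectomized library met at 13.3 CPM without crossing. It fell by 1.36 (SE 0.38, adjusted P = 0.0539 by edgeR). *H2-Aa*, at 45.8 to 124 CPM (median 75.1), fell by 1.20 (SE 0.39, adjusted P = 0.0928 by edgeR).

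The remaining 2 members were not called. *H2-Eb1* was at 63.5, 144, 138, 87.5 and 112 CPM in the DHT group, within the range of the orchiectomized libraries for 2 of the values, with a log2 fold change of -0.97 (SE 0.37, adjusted P = 0.149). *H2-DMb1* was at 11.1 to 17.9 CPM with a log2 fold change of -0.85 (SE 0.32, adjusted P = 0.134).

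Counted together, 5 of the 7 genes were called lower and 0 higher with DHT, against 7.27% of all tested genes called lower, and 1 of 7 had an adjusted P under 0.05, against 3.8% of all genes. The groups of 3 members did not overlap, as for 4.34% of all genes in that direction, and the median log2 fold change was -1.36 over the members and -0.02 over all tested genes. Without orchiectomized 2, *Ciita* (-1.33), *H2-Ab1* (-0.87), *Cd74* (-0.84) and *H2-DMa* (-0.75) were still called lower, so 4 of 7 where 5.26% of all genes were. *H2-Aa* was at -0.67, *H2-Eb1* at -0.40 and *H2-DMb1* at -0.34 in that fit, and the adjusted P values of the 7 were 0.1 to 0.401. Leaving out orchiectomized 4 as well brought the count to 0, with estimates from -1.05 (*Ciita*) to -0.23 (*H2-Eb1*).

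No difference in the members was detected between DHT-treated orchiectomized mice and control mice. Of the 7 members 0 were called in either direction by edgeR (0 had an unadjusted P under 0.05), where 1.52% of all tested genes were called higher and 2.01% lower. The estimates ran from -0.59 for *Ciita* (interval of 2 SE, -1.48 to 0.31) to 0.14 for *H2-Eb1* (-0.60 to 0.89), with adjusted P values of 0.627 to 0.989, and every member's groups overlapped. Without orchiectomized 2 the estimates were -0.58 to 0.14 and 0 members were called by edgeR, again with 0 at an unadjusted P under 0.05. All 3 comparisons share groups with each other, so their estimates are not independent.

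The 7 members varied together from library to library. Over the 15 libraries, Pearson's r between members' log2 CPM had a median of 0.94 over the 21 pairs (0.66 to 0.99), and 0.89 (0.48 to 0.99) over 14 libraries without orchiectomized 2. With group means removed from these 14 libraries the median was 0.85 (0.20 to 0.98). *Ciita*, which is counted least often, had the lowest r with the others (median 0.75, and 0.54 over 14 libraries with group means removed). Libraries share depth and tissue composition, so these values describe likeness and were not tested. Orchiectomized 2 was highest for all 7 genes, 1.37 times (*Ciita*) to 2.94 times (*H2-DMa*) the next library, which was orchiectomized 4 each time. The genes most like the mean standardized level of the members over 15 libraries were *Cd52* and *Lyz2*, both leukocyte genes, *Ifi47*, an interferon-inducible GTPase, *Irf8*, a transcription factor of myeloid and B cells, and *Mpeg1*, a macrophage pore protein (r of 0.95 to 0.97). With group means removed and without orchiectomized 2 (14 libraries) they were *Ctss*, *H2-T23*, *Cd53*, *Lyz2* and *Zbp1* (r of 0.93 to 0.96).

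The ratio of 2 members set the DHT libraries apart from both other groups. *H2-Eb1* relative to *H2-Ab1* was 1.20, 1.05, 1.22, 1.08 and 0.934 in the controls, 0.942, 0.980, 0.934, 1.07 and 0.998 in the orchiectomized libraries, and 1.43, 1.28, 1.39, 1.33 and 1.53 with DHT. Each of the 5 DHT libraries was therefore above all 10 others, orchiectomized 2 included, whose ratio of 0.980 was in the middle of its group. The mean log2 ratio was 0.13 ± 0.16, -0.02 ± 0.08 and 0.47 ± 0.10 (SD, n = 5 each). Of all other tested genes, 0.142% lay above *H2-Ab1* in this way in every DHT library against every control (20 of 14120), whereas 36.7% did so in DHT-treated against untreated orchiectomized mice, where *H2-Ab1* itself was low.

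*Cd74* relative to *H2-Eb1* showed the same split, at 1.83 to 2.16 in the controls, 2.10 to 2.35 after orchiectomy and 1.55 to 1.75 with DHT. Its share of all genes relative to *H2-Eb1* was 1.03% for DHT against control and 0.191% for DHT-treated against untreated orchiectomized. Of the 21 pairs of members, 2 did not overlap between DHT and control libraries and 4 did not between DHT-treated and untreated orchiectomized libraries. *H2-Eb1* was part of 2 and of 3 of these, and in the last set it stood higher relative to *H2-Aa* as well (1.16 to 1.49 with DHT and 0.975 to 1.11 without), as 5.34% of all genes did. The remaining pair was *H2-DMb1* relative to *H2-Ab1* (0.150 to 0.260 with DHT and 0.115 to 0.148 without), where 36.7% of all genes stood higher relative to *H2-Ab1* as well. The share of all gene pairs that stood apart was not computed. Between orchiectomized and control mice 0 of 21 pairs stood apart. All these counts were the same without orchiectomized 2. The ratios were noticed after the values had been seen and are given without a test.

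**Figure D3:**
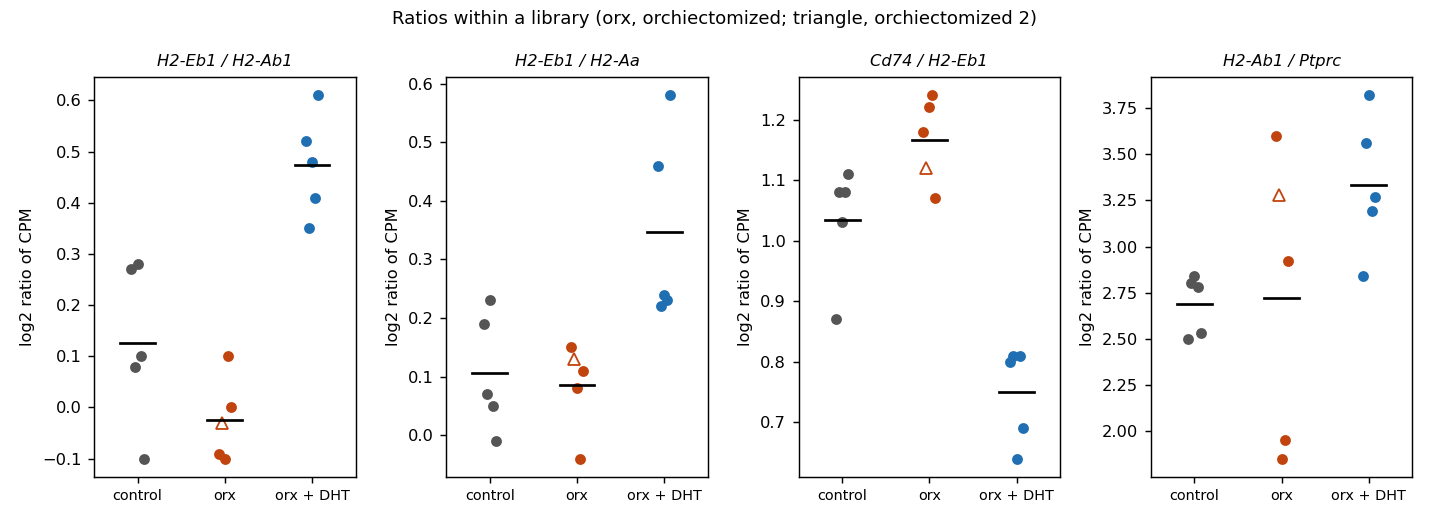
Log2 ratio of CPM within each library for 4 pairs of genes, by group (5 libraries each, line at the mean). *H2-Eb1* relative to *H2-Ab1* was highest in the DHT libraries (mean log2 ratio 0.47), and *Cd74* relative to *H2-Eb1* was lowest there (0.75 against 1.03 in controls). The ratio of *H2-Ab1* to *Ptprc* was spread over the widest range in the orchiectomized group (1.85 to 3.60).

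A pan-leukocyte gene moved in the same direction as the class II genes. *Ptprc*, which encodes the pan-leukocyte protein CD45, rose after orchiectomy by a log2 fold change of 1.24 (SE 0.37, adjusted P = 0.285), from 13.8 ± 5.18 to 32.5 ± 17.7 CPM (SD over 5 libraries). With DHT it stood at 7.06 ± 1.25 CPM, a log2 fold change of -2.20 (SE 0.39, adjusted P = 0.0103 by edgeR). Without orchiectomized 2 it was not called after orchiectomy (1.02) and was called lower with DHT (-1.98). Relative to *Ptprc*, the members had differences in mean log2 ratio between orchiectomized and control libraries from -0.35 (*H2-DMb1*) to 0.03 (*H2-Ab1*) and overlapping groups (-0.45 to -0.11 without orchiectomized 2). In DHT-treated against untreated orchiectomized libraries the ratio was higher by 0.54 (*Ciita*) to 1.24 (*H2-DMb1*), also with overlapping groups (0.55 to 1.34 without orchiectomized 2). In DHT against control libraries the ratio was higher by 0.65 to 0.99 for *H2-Ab1*, *Cd74*, *H2-DMb1* and *H2-Eb1*, whose groups did not overlap, as for 15.2% of all genes. For *H2-Ab1* the nearest DHT and control values were equal to 2 decimals (2.84). *Ptprc* itself had a log2 fold change of -0.97 (SE 0.38, adjusted P = 0.362) in that comparison. The 6 pan-leukocyte markers, *Ptprc* among them, had a median of -0.30 there and of -1.62 in DHT-treated against untreated orchiectomized mice. Both medians were nearer to 0 than the values of *Ptprc*. The ratios to *Ptprc* therefore hold for that gene and not for leukocyte markers as a set.

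The marker lists of cells that carry class II molecules held unequal numbers of called genes, a difference that was not itself tested. Of 8 tested B cell markers 7 were called higher after orchiectomy and 8 lower with DHT, with medians of 3.04 and -3.07, and 6 and 7 without orchiectomized 2. *Cd79b*, a signaling chain of the B cell receptor, went from 1.56 ± 0.613 CPM in the controls to 13.4 ± 16.0 after orchiectomy (2.05 to 41.0) and 1.71 ± 0.683 CPM with DHT (SD, n = 5), and the orchiectomized mean was 6.50 ± 4.94 CPM over the 4 libraries without orchiectomized 2. The summed level of the 10 B cell markers was 4.68 to 12.7 CPM in the controls, 8.83 to 197 CPM after orchiectomy and 4.10 to 13.3 CPM with DHT. Of 12 macrophage markers 0 were called after orchiectomy and 2 (*Adgre1* and *Csf1r*) were called lower with DHT, the summed levels being 411 to 994, 632 to 909 and 411 to 717 CPM. The estimates of 11 of the 12 were below 0 with DHT against untreated orchiectomized mice (median -0.67) and against control mice (median -0.48). Without orchiectomized 2, *Adgre1* was the 1 macrophage marker called lower with DHT (median -0.58). In orchiectomized 2 the macrophage sum was 737 CPM, within the range of its group, while the B cell sum was the highest of all libraries.

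Among 8 tested dendritic cell markers *Itgax* was called higher after orchiectomy and 3 were called lower with DHT (*Itgax*, *Cd209a* and *Clec9a*), and without orchiectomized 2 *Itgax* was the 1 called in either comparison. Of 5 tested monocyte markers 3 were called higher and 2 lower, of 7 tested T cell markers 5 and 6, and of 6 pan-leukocyte markers 3 and 5. Without orchiectomized 2 these counts were 1 and 2 for monocytes, 3 and 4 for T cells, and 2 and 5 for pan-leukocyte markers. The 3 tested lung epithelial markers (*Scgb1a1*, *Ager* and *Napsa*) were called in both comparisons, and 2 of 3 without orchiectomized 2. Endothelium, which can carry class II molecules after interferon-γ, had 0 of 8 markers called after orchiectomy and *Pecam1*, *Tek* and *Vwf* called lower with DHT, at -0.53 to -0.89. The same 3 were called lower in DHT-treated against control mice, at -0.47 to -0.76, and all these endothelial counts were the same without orchiectomized 2. Of 8 smooth muscle markers 0 were called in those 2 comparisons by edgeR, and *Des* was called higher with DHT without orchiectomized 2 (1.00). All 8 had estimates above 0 in DHT-treated against untreated orchiectomized mice (median 0.43), with summed levels of 20145 to 25023 CPM with DHT, 11204 to 20700.0 CPM without it and 14308 to 20519 CPM in the controls. Without orchiectomized 2, which had the level of 11204 CPM, 7 of 8 were above 0 (median 0.35) and the untreated orchiectomized libraries started at 14325 CPM. In DHT-treated against control mice 0 were called by edgeR with all libraries (median 0.41), and *Des*, *Smtn* and *Lmod1* were called higher when orchiectomized 2 was left out of the fit. Over the 15 libraries, the mean standardized log2 CPM of the members had a Pearson's r of 0.96 with that of the pan-leukocyte, 0.88 with the B cell, 0.87 with the dendritic cell and 0.63 with the macrophage markers. Over 14 libraries without orchiectomized 2 these were 0.94, 0.75, 0.83 and 0.84, and with group means removed as well 0.94, 0.54, 0.82 and 0.88, so that the order of B cell and macrophage markers turned with 1 library. For the monocyte and the lung epithelial markers r was 0.93 and 0.85 over the 15 libraries. It was 0.79 and 0.65 without orchiectomized 2, and 0.70 and 0.40 with group means removed as well. These values describe libraries that share depth and composition. How much each of these cell types contributed to the class II level was not tested.

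**Figure D4:**
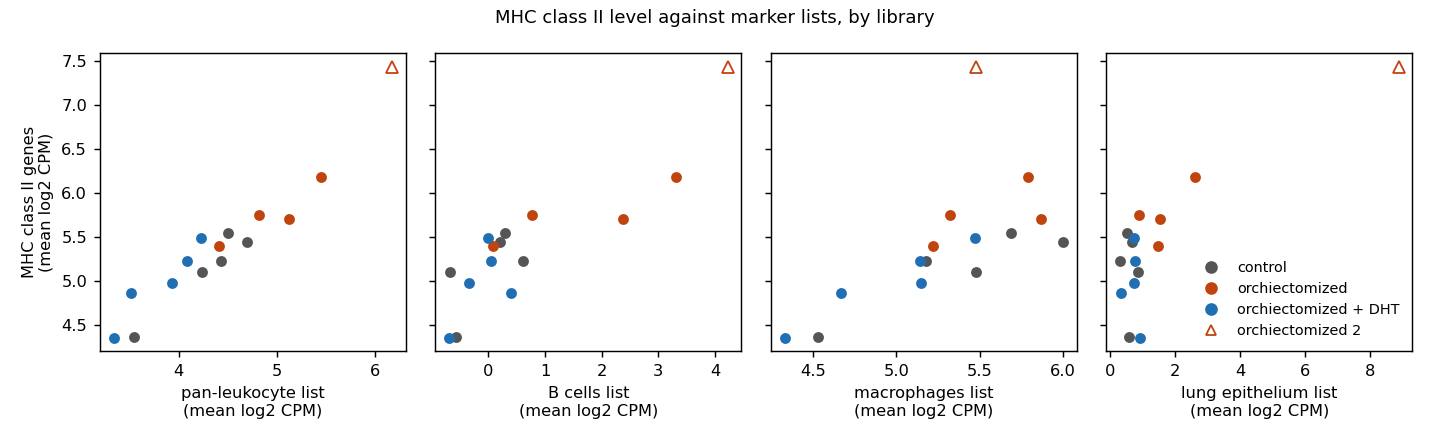
Mean log2 CPM of the 7 MHC class II genes in each library against the mean log2 CPM of 4 marker lists. In orchiectomized 2 (open triangle) the class II level was 7.43, with lung epithelium at 8.89 and B cells at 4.22, whereas its macrophage level of 5.48 lay among the other libraries. Points of all 3 groups lie along 1 band in the pan-leukocyte panel.

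The other genes of class II loading were read from a list of 15, of which 12 were tested. After orchiectomy 3 were called higher and 0 lower. *H2-DMb2*, the second DM β chain, rose by a log2 fold change of 2.45 (SE 0.56, adjusted P = 0.239 by edgeR), from 1.15 ± 0.507 to 6.35 ± 5.53 CPM with groups that did not overlap (4.11 ± 2.70 CPM over 4 libraries without orchiectomized 2). *H2-Ob*, a chain of the DM inhibitor DO that is known from B cells, rose by 2.51 (SE 0.69), and *Cd83*, which slows the turnover of class II molecules, by 1.03 (SE 0.34). Without orchiectomized 2, *H2-DMb2* alone of these was called (1.83), with *H2-Ob* at 1.55 and *Cd83* at 0.68.

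With DHT 6 of the 12 were called lower and 0 higher. *H2-DMb2* had a log2 fold change of -2.64, *H2-Ob* of -2.62 and *Cd83* of -1.32. *Ctss*, a protease that trims the invariant chain in B cells and dendritic cells, stood at -1.31 (SE 0.33, adjusted P = 0.0369 by edgeR), from 60.4 ± 30.2 to 24.3 ± 7.53 CPM. *Ctsl*, known for the same step in other cells, was at -0.49 and the protease *Ctsh* at -0.81. All 6 were called without orchiectomized 2 as well. The tested genes that were not called were the proteases *Ctsb* (0.42), *Ctsd* (0.33) and *Lgmn* (-0.31), the thiol reductase *Ifi30* (-0.09), *Sppl2a* (-0.11), which clears the stub of the invariant chain, and *March1* (-0.92), a ubiquitin ligase of class II molecules. In DHT-treated against control mice *Sppl2a* was called lower (-0.26) and the other 11 were not called. *H2-Oa*, *H2-Eb2* and *H2-Ea-ps* were too low to be tested, and *H2-Eb2* reached 3.27 CPM in the orchiectomized group against 0.187 and 0.494 CPM at most in the control and DHT groups.

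The proportion of the paralogs *H2-DMb1* and *H2-DMb2* overlapped between the groups. *H2-DMb2* relative to *H2-DMb1* was 0.0895 to 0.132 in the controls, 0.125 to 0.368 after orchiectomy and 0.0652 to 0.159 with DHT, and the orchiectomized range was the same without orchiectomized 2. Orchiectomized 1 and 5 (0.125 and 0.128) lay within the control range, and reads shared between the paralogs bear on this ratio.

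Regulators of class II transcription, other than *Ciita*, were mostly not called. Of 16 tested genes *Irf8* was the 1 called higher after orchiectomy (1.25, SE 0.42, adjusted P = 0.308 by edgeR), and *Irf8* (-1.72) and the interferon receptor kinase *Jak1* (-0.39) were called lower with DHT. The RFX subunits, which bind the X box, had log2 fold changes of 0.15 (*Rfx5*), 0.09 (*Rfxap*) and -0.06 (*Rfxank*) after orchiectomy and -0.09, 0.03 and 0.19 with DHT. The NF-Y subunits were at -0.12 (*Nfya*), 0.29 (*Nfyb*) and -0.25 (*Nfyc*), and none of the 6 was called in any comparison. *Irf1*, an interferon-inducible transcription factor, was at 0.36 and -0.43 and was not called. The remaining 7 regulators (*Creb1*, *Ifngr1*, *Ifngr2*, *Jak2*, *Socs1*, *Spi1* and *Irf4*) were at -0.06 to 0.56 after orchiectomy and at -0.77 to 0.02 with DHT, and 0 of them were called by edgeR (*Ifngr1* and *Spi1* had an unadjusted P under 0.05 with DHT). *Ifng* had 0 to 2 counts per library and was not tested. Without orchiectomized 2 *Irf8* was at 0.61 and not called after orchiectomy and still called lower with DHT (-1.07), and *Jak1* was not called with DHT (-0.40). In DHT-treated against control mice *Jak1* was the 1 regulator called, at -0.41.

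MHC class I genes, whose transactivator is NLRC5, had median estimates nearer to 0 than the class II members, although single genes moved further. The proteasome gene *Psmb9* was at 11.5 ± 3.39 CPM in the controls, 21.5 ± 12.6 after orchiectomy and 11.9 ± 3.12 with DHT (SD, n = 5). Its orchiectomized mean was 16.1 ± 3.62 CPM without orchiectomized 2, and it was not called. Of 11 tested genes *Tap1*, a subunit of the peptide transporter, was called higher after orchiectomy (0.68, SE 0.22, adjusted P = 0.308) and 0 were called lower with DHT. *Nlrc5* was at 0.02 and -0.27, *H2-K1* at 0.37 and -0.47, and *B2m*, the shared light chain, at 0.22 and -0.18, and the list medians were 0.36 and -0.32 against 1.11 and -1.36 for the class II members (0.14 and -0.12 against 0.63 and -0.75 without orchiectomized 2). Without orchiectomized 2 *Tap1* was at 0.42 and not called. Whether class I and class II genes differed in their change was not tested.

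Costimulatory molecules and T cell receptors of class II responses were sparse, at 18.0 to 57.5 CPM for the sum of 10 genes in any library. Of 6 tested genes 0 were called after orchiectomy. With DHT 4 were called lower, namely *Cd40* (-1.33) and *Cd86* (-1.34), which antigen-presenting cells carry, *Icosl* (-0.97), and *Cd4* (-2.22), the coreceptor that binds class II molecules. Of these, 2 were called without orchiectomized 2.

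**Figure D5:**
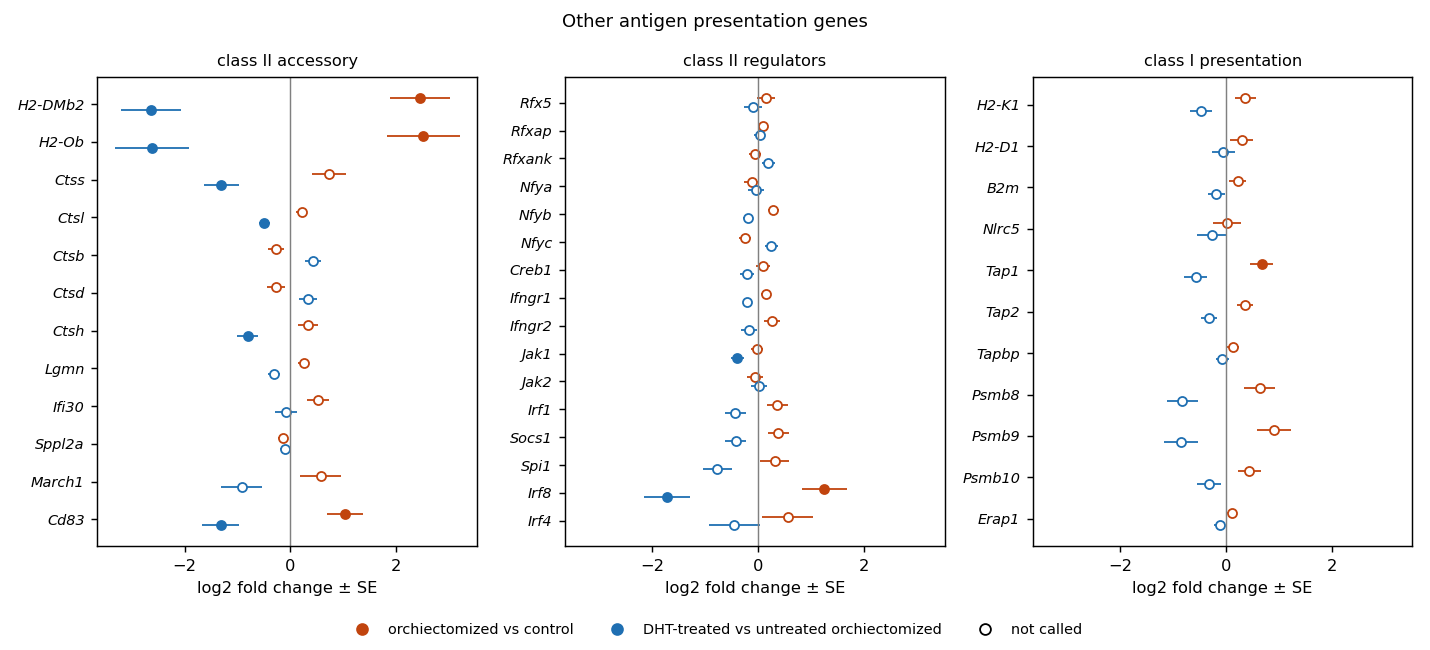
Log2 fold change ± SE of the tested accessory genes of class II loading, the regulators and the class I genes, in orchiectomized against control mice and in DHT-treated against untreated orchiectomized mice. Filled points were called (P under 0.01). *H2-DMb2* and *H2-Ob* moved furthest, at 2.45 and 2.51 and at -2.64 and -2.62, while the RFX and NF-Y subunits lay near 0.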

How the data were processed

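RNA-Seq libraries of whole mouse aortas (poly(A) selected, 5 per group) were grouped by the labels. The authors deposited raw counts per gene symbol, whole numbers without normalization. The submitters' processing notes name STAR, Cufflinks, DESeq2 and mm10, without versions or order, and the strand setting is not given in the sources used here. A symbol's count can therefore hold antisense reads. Reads assigned to no gene (6.26% to 14.4%) or to several genes (1.34% to 1.97%) were left out.

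Counts were analyzed with edgeR 4.0.16 in R 4.3.3: filterByExpr (minimum count 10, minimum total 15), TMM, and a quasi-likelihood test with the 3 groups as the only term, fitted to all 15 libraries and 14121 genes. A gene was called at an unadjusted P under 0.01, the threshold of the study, and P was adjusted by Benjamini-Hochberg over all tested genes. The script was tested on simulated data. log2 CPM used a prior count of 2, and ratios used CPM plus 0.5. Levels per kilobase used the principal GENCODE transcript. Within groups, all pairs of libraries differed beyond sampling noise. Figures were drawn with matplotlib 3.10.9.

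The 7 members, the marker and pathway lists and the tests were chosen with earlier results of these data known. Named are the 7 members, the accessory genes, the genes most like the members, and from each list up to 3 called genes per direction with the smallest P, plus *Ptprc*, *Nlrc5*, *Rfx5* and *Ifng*; other list genes were named after their values were seen, and 1 further gene is not reported here. Alternatives were DESeq2 1.42.0, RLE size factors, other filters, only the groups compared, a replicate block, voom with quality weights (limma 3.58.1), the adjusted threshold, a pseudocount of 0.1 and leaving out each library. DESeq2 without orchiectomized 2, leaving out orchiectomized 2 and 4, and ratios between members without orchiectomized 2 were added after seeing the data.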

Additional observations from a re-analysis of the deposited data

Results flagged for a closer look

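In groups of 5 libraries, 45 sets of values of the members and their ratios were searched for a library far from the other 4 (gap to its neighbor over 0.71 of the whole range), which chance gives in about 1 of 20 sets, and 4 were found. Orchiectomized 2 stood high in its group for *H2-Ab1* (0.74 of the range), *H2-DMa* (0.73) and *H2-DMb1* (0.86) on the log2 CPM scale. Control 1 stood low for *H2-DMb1* (0.79), at 8.60 CPM against 14.5 to 16.7 CPM in the other controls, and had the lowest control value for the other 6 members as well.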

How the results depend on the processing

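In orchiectomized against control mice, the 4 members called higher became 6 with DESeq2, 3 with RLE size factors or either other filter, 1 with voom and quality weights, and 0 with only the groups compared, at an adjusted P under 0.05, with DESeq2 without orchiectomized 2, or without orchiectomized 2 and 4. Leaving out 1 library gave 0 to 6, with 0 without control 1, control 2, control 3 or orchiectomized 2 and 2 without orchiectomized 4. In DHT-treated against untreated orchiectomized mice, the 5 called lower became 3 with voom, 1 at an adjusted P under 0.05 and 0 without orchiectomized 2 and 4, and were 4 or 5 otherwise, also when 1 library was left out. In both comparisons every estimate of every member kept its sign. In DHT-treated against control mice 0 members were called under any setting, and small estimates changed sign: with voom *H2-Aa* (0.10), *H2-DMa* (0.03) and *Cd74* (0.05), and, when 1 library was left out, *H2-Aa* (-0.25 to 0.07, above 0 without control 4 at 0.04, control 5 at 0.00 or DHT 1), *H2-Eb1* (-0.01 without control 1, to 0.29), *H2-DMa* (-0.26 to 0.02, the latter without DHT 4) and *H2-DMb1* (-0.12 to 0.10, below 0 without control 1, DHT 2 at -0.03 or DHT 3 at -0.07). The causes were not tested. A ratio pseudocount of 0.1 changed no direction. *Ciita* was not tested with at least 10 counts required in every library.

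The labels do not say whether libraries with the same replicate number were paired. Same-numbered libraries of different groups had deviations with a median correlation of 0.02 (-0.46 to 0.45). For differently numbered libraries it was 0.03 (-0.67 to 0.68). These ranges are too wide to decide whether the numbers mark a pairing. With the replicate block 6 members were called higher after orchiectomy and 5 lower with DHT. Over all settings, genes called among all tested ranged from 84 to 498 higher and from 78 to 446 lower after orchiectomy, from 218 to 645 higher and from 495 to 1217 lower with DHT, and from 115 to 501 higher and from 168 to 503 lower for DHT against control.

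*Ciita* (9 to 129 counts per library) limits what can be said of the regulator, and 5 libraries per group, with lung transcripts highest in orchiectomized 2 and present at low levels in others, limit the rest.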
